A study of Homo sapiens with 18 samples.

Results

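The change in gene expression after knockdown of TAZ was compared between H1299 and A549, a pair of established cell lines from human lung carcinomas of the non-small cell type. The comparison used 12 of the 18 RNA-seq libraries of the series, 3 in each of 4 groups: H1299 with siControl, H1299 with siTAZ, A549 with siControl and A549 with siTAZ. Its measure is the line difference, the log2 change under siTAZ in A549 minus the log2 change under siTAZ in H1299. It was tested for 15524 genes of the 17094 gene symbols listed for both lines. A positive line difference therefore means that the A549 change lay above the H1299 change.

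In all 4 groups the cells received 30 nM of a SMARTpool, a mixture of siRNAs, for 48 h and had no serum for the last 18 h. The siTAZ pool was directed at the transcript of WWTR1, the gene of TAZ, and the siControl pool stood in for it in the controls. H1299 cells grew in RPMI-1640 and A549 cells in DMEM. Each line has its own count table. Effects of the line, its medium and its experiment cannot be told apart. Each line is a single cell line, and a difference between them describes these lines only.

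TAZ and its relative YAP are transcriptional coactivators of the Hippo pathway. When the Hippo kinases MST1/2 and LATS1/2 are inactive, both proteins enter the nucleus and bind TEAD transcription factors, which recognise the bases GGAATG. Known direct targets of this complex include CYR61 and CTGF, secreted matrix-associated proteins. In carcinoma cells YAP and TAZ are known for promoting proliferation, cytoskeletal remodelling and the expression of matrix genes.

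Levels are given as CPM, counts per M reads assigned to genes and scaled between libraries, in the order of replicates 1, 2 and 3. Changes are log2 values ± the standard error of the fit, with n = 3 libraries per group throughout, and a gene was called at an adjusted p below 0.05 by edgeR's quasi-likelihood test with Benjamini-Hochberg adjustment over all 15524 genes. Libraries with the same replicate number within a line deviated together, so the number was a block in the fit, and this choice decides most calls. With the block 3168 genes (20.4%) were called for the line difference, with the number as a block in A549 only 547, and with no block 2. With no block 2239 genes still had an unadjusted p below 0.05, and all 3168 estimates had the same sign as with the block.

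The 12 libraries held 13.1 to 41.0 M assigned reads, with the widest range among the A549 libraries. Epithelial keratins were far higher in A549 than in H1299: KRT8 was at 2412 to 3928 CPM against 140.5 to 193 CPM, and KRT19 at 233 to 321 CPM against 0.163 to 0.629 CPM. Vimentin (VIM), a mesenchymal filament protein, was at 2634 to 3526 CPM in H1299 and at 490 to 656 CPM in A549. KRT18 was at 178 to 263 CPM in H1299 and at 802 to 1850 CPM in A549. The mesenchymal cadherin CDH2 was at 41.2 to 59.6 CPM in H1299 and at 15.8 to 29.4 CPM in A549. The mesenchymal factor ZEB1 did not separate the lines, at 26.5 to 28.7 CPM in H1299 and 26.2 to 27.5 CPM in A549. The epithelial gene EPCAM was low in both, at most 0.681 and 4.42 CPM, and CDH1 was not listed for both lines. The fibroblast gene PDGFRB reached 4.81 CPM in H1299 and 0.254 CPM in A549, and the macrophage gene CD68 0.315 and 0.714 CPM. In A549 the leading principal component, with 49.2% of the variance of log CPM, set replicate 3 of both groups apart from the other libraries. In H1299 the leading component (51.4%) separated siTAZ from siControl, and the next (22.1%) set replicate 2 of both groups apart.

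WWTR1 lies on chromosome 3 at 149517235-149736714 (GRCh38, minus strand). Its transcript was at 243, 253 and 209 CPM in the H1299 siControl libraries and at 33.1, 75.5 and 26.7 CPM after siTAZ. In A549 it was at 196, 206 and 200.3 CPM with siControl and at 80.2, 58.4 and 59.6 CPM with siTAZ. Every siTAZ library lay below every control library of its line, and the controls of the lines were at similar levels. The H1299 replicate 2 kept the most WWTR1 of the H1299 siTAZ libraries and overlapped the A549 range.

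The log2 change of WWTR1 was -2.49 ± 0.16 in H1299 (adjusted p = 1.2e-08, edgeR) and -1.62 ± 0.15 in A549 (adjusted p = 1.2e-05, edgeR). The knockdown was thus deeper in H1299, with a line difference of 0.87 ± 0.22 (adjusted p = 0.0097, edgeR). That call was lost when replicate 1 of any of the 4 groups was left out. It was also lost with no block, with the block in A549 only and with DESeq2. Values ran from 0.61 to 1.27 over all 12 omissions of 1 library. With the block, each omission also leaves the same-numbered partner library unpaired, so the 12 omissions are not separate checks, here or below. The part of this unequal knockdown in the other line differences was not tested.

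YAP1, the gene of YAP (chromosome 11, 102110461-102233423, plus strand), was at 76.6, 76.8 and 71 CPM in H1299 controls and at 88.5, 96.7 and 92.2 CPM after siTAZ. In A549 it was at 67, 65.1 and 66.2 CPM in controls and 66.2, 67.5 and 72.3 CPM after siTAZ, with overlapping groups. It rose in H1299 by a log2 change of 0.31 ± 0.06, against 0.05 ± 0.06 in A549. The line difference of -0.25 ± 0.08 (adjusted p = 0.033, edgeR) lost its call in 7 of the 12 fits that left out 1 library and in the fits without the block, with the block in A549 only, with all 18 libraries, with DESeq2 and on thinned counts.

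**Figure D1:**
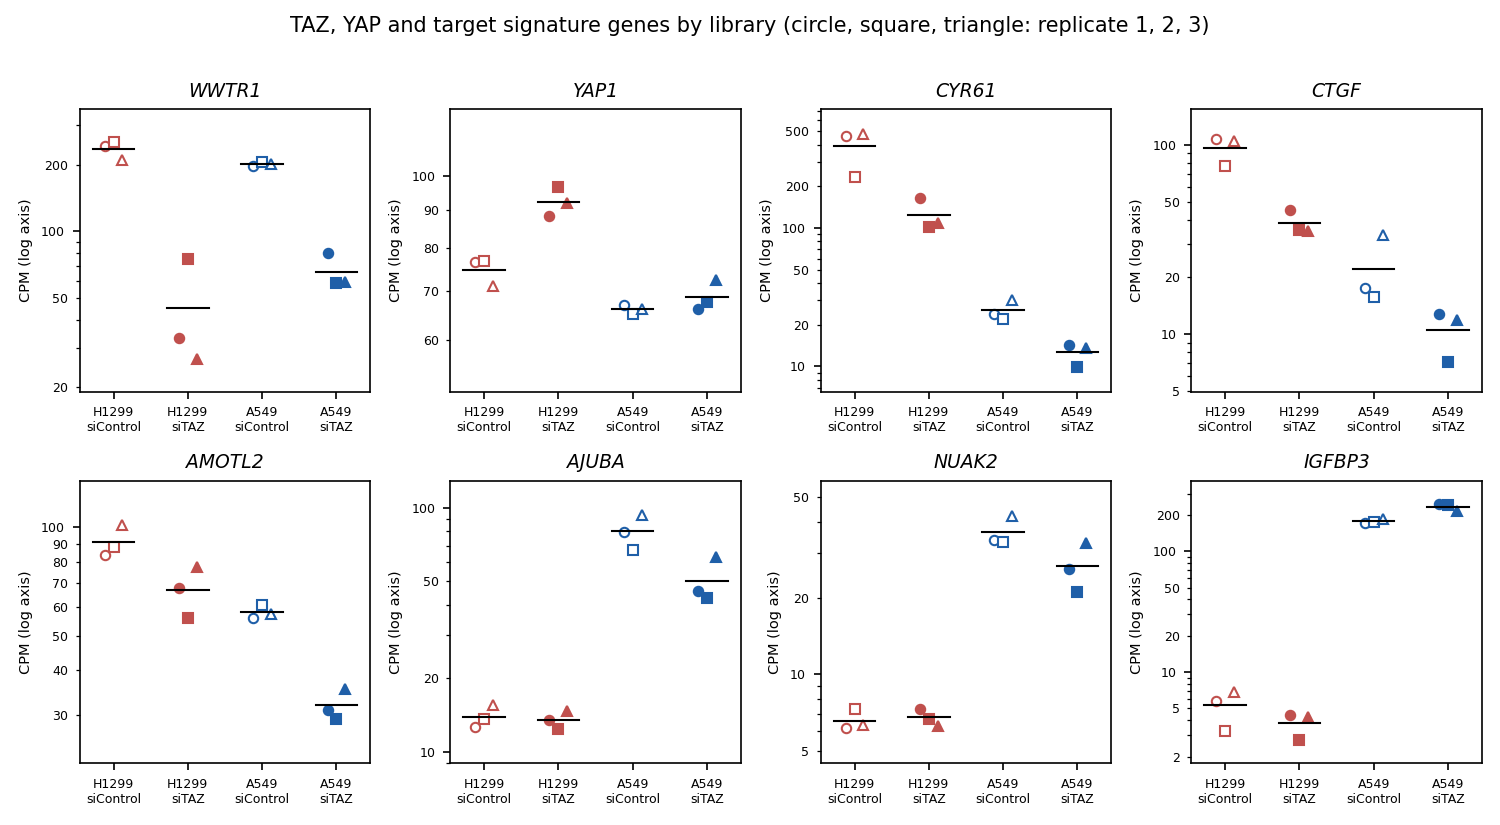
Level of TAZ (WWTR1), YAP1 and 6 genes of the YAP/TAZ signature in each of the 12 libraries, as CPM on a log axis. Points are libraries (open, siControl; filled, siTAZ; circle, square and triangle for replicates 1, 2 and 3) and bars are group means. CYR61 and CTGF were lower with siTAZ in both lines, AJUBA fell in A549 and stayed level with its controls in H1299, and IGFBP3 moved in opposite directions.

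Across all genes H1299 responded far more widely. In H1299 6921 genes (44.6%) were called under siTAZ, 3305 higher (21.3%) and 3616 lower (23.3%). In A549 521 genes (3.36%) were called, 344 higher (2.22%) and 177 lower (1.14%). Changes of at least 2-fold were called for 536 genes in H1299 and for 24 in A549. The fit estimated 1 spread for both lines, and the median standard error of a change was 0.0857 in H1299 and 0.0864 in A549.

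The spread of the changes differed accordingly, with a standard deviation of log2 changes over all genes of 0.461 in H1299 and 0.261 in A549. Over the 5389 genes called in H1299 and at or above 5 CPM in each line, the median size of the H1299 change was 0.329. The A549 change of the same genes, signed by the H1299 direction, had a median of 0.0675. Of the genes called lower in H1299, 71.5% had a negative estimate in A549, and of those called higher 74.6% had a positive one. Across genes the changes of the lines correlated with a Pearson r of 0.26 over all 15524 genes and of 0.513 over genes at or above 5 CPM in each line. Genes are not independent replicates, and each line's changes share its own libraries.

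The line difference was called with the A549 change above the H1299 change for 1895 genes (12.2%) and below it for 1273 (8.2%). Of the 3168 genes, 2873 (90.7%) were called under siTAZ in H1299 and not in A549, and 1710 of these were lower in H1299 and 1163 higher. A further 72 (2.27%) were called in A549 and not in H1299, 44 of them higher and 28 lower. In 89 (2.81%) both lines were called in the same direction with different sizes, and the H1299 change was the larger in 83. In 27 (0.852%) the lines were called in opposite directions, and in 107 (3.38%) neither line was called on its own.

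The line difference reached 2-fold for 258 of the called genes. Of the 3168 genes, 86 averaged under 1 CPM in H1299 and 59 under 1 CPM in A549. Among the 9936 genes at or above 5 CPM in each line, 2725 (27.4%) were called. Leaving out single libraries gave 1479 to 4487 called line differences. Without both A549 libraries numbered 3, which stand apart, 1810 were called, and without both H1299 libraries numbered 2 4482. The count fell to between 1479 and 1914 when a library of A549 or replicate 1 or 3 of H1299 was left out, and rose to 4461 without replicate 2 of H1299 siControl and to 4487 without replicate 2 of H1299 siTAZ.

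**Figure D2:**
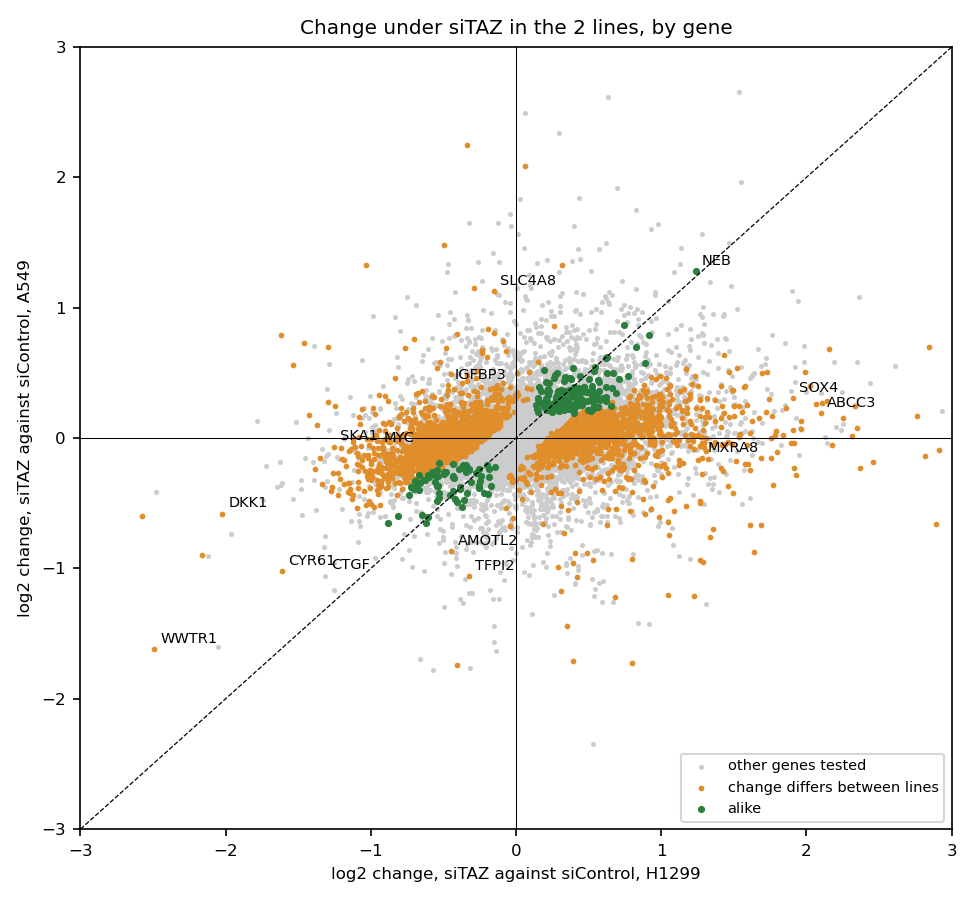
Log2 change under siTAZ in H1299 (x axis) and in A549 (y axis) for each gene tested, with 15 genes outside the plotted range. Orange points are the called line differences, and green points are genes called alike, 27 of which were also called different in size. The dashed line marks equal changes. The orange cloud is drawn out along the x axis, with A549 changes near 0 for most of these genes.

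The YAP/TAZ target signature, a list of 28 genes from published TEAD target sets, had 26 members tested. Under siTAZ 12 of them fell and 4 rose in H1299, and 11 fell and 2 rose in A549. The median log2 change was -0.05 in H1299 and -0.21 in A549, beside 0.01 over all genes in each line. The line difference was called for 11 members (42.3%, against 20.4% of all genes), with the A549 change above for 4 and below for 7. The A549 change was the larger in 5 of these 11 members, AMOTL2, AJUBA, NUAK2 and DOCK5 among them.

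CYR61, a secreted matrix-associated ligand of integrins, was at 461, 236 and 477 CPM in H1299 controls and at 165, 102 and 108 CPM after siTAZ. In A549, where it was far lower, it was at 23.8, 22.1 and 30.3 CPM in controls and at 14.3, 9.94 and 13.6 CPM after siTAZ. The groups did not overlap in either line (20.0% of all genes had siTAZ wholly below siControl in H1299 and 3.64% in A549). Its log2 change was -1.61 ± 0.11 in H1299 and -1.02 ± 0.16 in A549. The line difference of 0.59 ± 0.19 (adjusted p = 0.036, edgeR) lost its call in 10 of the 12 fits with 1 library left out, over which it ran from 0.29 (without replicate 3 of H1299 siTAZ) to 0.76.

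CTGF, a close relative of CYR61, was at 107, 77.1 and 105 CPM in H1299 controls and at 45, 35.4 and 35.1 CPM after siTAZ, and at 17.5, 15.6 and 33.3 CPM and 12.7, 7.1 and 11.8 CPM in A549. All siTAZ libraries lay below all controls of the same line. The log2 change was -1.32 ± 0.10 in H1299 and -1.06 ± 0.14 in A549. The line difference was 0.26 with a 95% interval of -0.11 to 0.63 (adjusted p = 0.31, edgeR), and this interval was too wide to call the gene alike. CTGF was chosen after its values were seen, as were ANKRD1 and AXL.

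The stretch before the CTGF start is shown because the gene fell in both lines and the sequence holds the letters that TEAD factors recognise. It lies at chr6:131951374-131951622 on the minus strand, from RefSeq's GRCh38.p14 promoter table, where the gene is named CCN2. Capitals mark the 3 matches to GGAATG, searched on both strands, with first bases 169, 104 and 95 bases before the start.
CTGF: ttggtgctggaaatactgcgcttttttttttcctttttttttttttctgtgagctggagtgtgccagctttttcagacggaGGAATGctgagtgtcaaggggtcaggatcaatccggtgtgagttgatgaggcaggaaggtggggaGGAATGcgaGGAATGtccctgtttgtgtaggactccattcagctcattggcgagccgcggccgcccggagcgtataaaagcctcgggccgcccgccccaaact
The letters GGAATG or their complement occurred in 11.9% of 27305 promoter stretches of 250 bases in that table. A match is a description of the letters and no evidence of binding.

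ANKRD1, a muscle-ankyrin repeat protein and YAP/TAZ target, was close to absent in H1299, with 0.105, 0.273 and 0.46 CPM in controls and 0.0499, 0 and 0.14 CPM after siTAZ. In A549 it was at 10.5, 9.41 and 28.1 CPM in controls and 4.51, 2.46 and 8.97 CPM after siTAZ, a log2 change of -1.60 ± 0.14. The H1299 estimate of -2.05 ± 0.73 rests on a few reads per library, and the interval of the line difference, -1.0 to 1.90, spans both signs. The receptor tyrosine kinase AXL changed by -0.17 ± 0.06 in H1299, a call, and by -0.23 ± 0.07 in A549, which did not pass. Its line difference was -0.06 with an interval of -0.25 to 0.13.

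Members of the signature with the larger A549 change included regulators of the pathway itself. AMOTL2, an angiomotin family scaffold that holds YAP and TAZ at junctions, was at 55.8, 60.7 and 57.3 CPM in A549 controls and at 31.1, 29.3 and 35.6 CPM after siTAZ. In H1299 it was at 83.5, 88 and 101 CPM and 67.6, 56 and 77.4 CPM. It fell, with log2 changes of -0.87 ± 0.08 in A549 and -0.45 ± 0.07 in H1299, and its line difference was -0.42 ± 0.11 (adjusted p = 0.0099, edgeR). That call was lost without replicate 2 of either A549 group.

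AJUBA, a LIM protein that restrains LATS kinases, was at 79.6, 67.2 and 93.2 CPM in A549 controls and at 45.5, 42.8 and 62.7 CPM after siTAZ, with no overlap. In H1299 it was at 12.7, 13.6 and 15.6 CPM and 13.5, 12.4 and 14.7 CPM, with overlapping groups. Its log2 change was -0.67 ± 0.06 in A549 and -0.04 ± 0.08 in H1299, and the line difference of -0.63 ± 0.10 was called (adjusted p = 7.0e-04, edgeR), with every single-library omission too. The kinase NUAK2 (line difference -0.51 ± 0.14) and the exchange factor DOCK5 (-0.25 ± 0.08) also fell in A549 and were not called in H1299. NUAK2 lost its line difference in 4 and DOCK5 in 10 of the 12 omissions.

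The reverse held for GADD45A, a growth arrest and DNA damage protein, and for ASAP1, an Arf GTPase-activating protein: both fell in H1299 (-0.34 ± 0.06 and -0.31 ± 0.05) and were not called in A549 (0.08 ± 0.07 and -0.05 ± 0.05). ASAP1 lost its line difference in 9 of the 12 omissions. CCDC80, a matrix protein, and FSTL1, a secreted glycoprotein, rose in H1299 by 0.89 ± 0.09 and 0.49 ± 0.06 and were not called in A549 (0.08 ± 0.08 and -0.11 ± 0.06). IGFBP3, an IGF-binding protein, was at 5.72, 3.28 and 6.91 CPM in H1299 controls and 4.44, 2.75 and 4.29 CPM after siTAZ, and at 171, 176 and 185 CPM and 245, 242 and 217 CPM in A549. It fell in H1299, with a log2 change of -0.47 ± 0.13 and rose in A549 by 0.40 ± 0.06, a line difference of 0.87 ± 0.15 (adjusted p = 7.4e-04, edgeR).

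Upstream in the pathway, 33 of 34 Hippo kinases, scaffolds and TEAD factors were tested. The line difference was called for 10 (30.3%), 4 above and 6 below. The share was 20.4% of all genes (12.2% above and 8.2% below) and 27.4% of genes at or above 5 CPM in each line. The list shares AJUBA and AMOTL2 with the signature and holds YAP1 and WWTR1, the siRNA target. These genes are among its called members. NF2, the scaffold merlin that activates the Hippo kinases, was at 77.7, 56.9 and 67.6 CPM in H1299 controls and at 32.3, 31.9 and 26.6 CPM after siTAZ. In A549 it was at 22.3, 25 and 26 CPM and 22.4, 20.8 and 26 CPM, with overlapping groups. Its line difference of 1.05 ± 0.13 (adjusted p = 6.5e-05, edgeR) was the largest of the list. The kinase STK4 (MST1) and the DNA-binding partner TEAD4 fell in H1299 (-0.40 ± 0.06 and -0.53 ± 0.09) and were not called in A549 (-0.09 ± 0.06 and -0.14 ± 0.10). A call in 1 line only does not show a line difference, here or for other genes given without one. VGLL4, a competitor of YAP and TAZ for TEAD factors, rose in H1299 by 0.72 ± 0.09, against 0.23 ± 0.09 in A549. TEAD1 fell in both lines, with log2 changes of -0.19 ± 0.05 and -0.30 ± 0.05, and the kinases LATS1 and LATS2 were not called in either line.

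Cell division genes had line differences in 1 direction. All 42 members of a mitosis and kinetochore list fell in H1299, with a median log2 change of -0.81, and 1, PRC1, fell in A549, where the median was -0.20. Line differences were called for 38 (90.5%), in each case with the A549 change above, beside 12.2% of all genes. Leaving out single libraries gave 12 to 42 called members, the lowest count without replicate 2 of A549 siTAZ. The fit without both A549 libraries numbered 3 gave 17, and the fit with the block in A549 only gave 11. The changes of these genes were negative in A549 for all members except NDC80, at 0.02 ± 0.16. In bulk libraries fewer cells of a kind and less RNA per cell cannot be told apart.

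MAD2L1, a spindle checkpoint protein, was at 35, 28.8 and 34.6 CPM in H1299 controls and at 15.4, 17.2 and 13.5 CPM after siTAZ. Levels in A549 were 22.7, 25.5 and 14.5 CPM and 19.9, 23.3 and 11.5 CPM, with overlapping groups. Its line difference was 0.89 ± 0.14 (adjusted p = 4.2e-04, edgeR). CENPI, an inner kinetochore protein, was at 39.5, 25.1 and 35.6 CPM in H1299 controls and 16.2, 14.3 and 11.2 CPM after siTAZ, against 20.3, 21.9 and 9.16 CPM and 17.4, 17.7 and 7.62 CPM in A549. Replicate 3 was the lowest of both A549 groups for both genes. SKA1, an outer kinetochore protein outside the list, had a larger line difference, 1.19 ± 0.21, with a change of -1.26 ± 0.12 in H1299 and -0.07 ± 0.17 in A549. The mitotic kinases AURKB and CDK1 changed by -1.0 ± 0.11 and -1.01 ± 0.09 in H1299 and by -0.01 ± 0.12 and -0.27 ± 0.10 in A549.

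DNA replication genes moved the same way. Of 42 members 41 fell in H1299 (median -0.73) and 8 in A549 (median -0.26), and RPA1 was called in neither line. A called line difference was seen for 34 members (81.0%), all with the A549 change above, beside 12.2% of all genes. Leaving out single libraries gave 20 to 37 called members (the lowest without replicate 3 of H1299 siTAZ). The block in A549 only gave 13. The 8 members that also fell in A549 were MCM4, MCM5, MCM6, CDC6, POLA2, RRM2, POLD1 and UHRF1.

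PCNA, the sliding clamp of DNA polymerases, was at 101, 78.8 and 95.2 CPM in H1299 controls and at 53.7, 54.2 and 48.6 CPM after siTAZ. A549 had 287, 328 and 221 CPM and 291, 352 and 209 CPM. The H1299 groups stood apart and the A549 groups overlapped, with replicate 3 the lowest in both. Its log2 change was -0.81 ± 0.07 in H1299 and 0.02 ± 0.06 in A549, a line difference of 0.83 ± 0.10 (adjusted p = 5.3e-05, edgeR). MCM2, a subunit of the replicative helicase, had a line difference of 0.82 ± 0.12 and was at 185, 132 and 158 CPM in H1299 controls against 93.2, 84.9 and 73 CPM after siTAZ. CDC6, which loads that helicase, fell in both lines, with log2 changes of -1.13 ± 0.09 in H1299 and -0.47 ± 0.10 in A549, and the sizes differed (adjusted p = 0.0023, edgeR).

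The stretch before the PCNA start is shown as an example of a replication gene that fell in H1299 and was level in A549. It covers 246 bases at chr20:5126627-5126872 on the minus strand, from the same RefSeq table (GRCh38.p14). Capitals mark 1 match to the E2F letters TTTCCCGC, read here on the other strand and starting 59 bases before the start, and 3 matches to the CCAAT box on either strand.
PCNA: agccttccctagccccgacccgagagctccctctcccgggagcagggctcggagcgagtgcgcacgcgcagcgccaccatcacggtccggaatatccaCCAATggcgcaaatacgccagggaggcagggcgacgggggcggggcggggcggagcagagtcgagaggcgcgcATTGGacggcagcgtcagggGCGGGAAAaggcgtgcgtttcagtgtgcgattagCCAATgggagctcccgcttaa
E2F letters occurred in 9 of the 35 replication genes with a promoter in the table (25.7%), against 2.23% of the 10475 promoters of genes tested and 1.42% of all 27305 promoters. CCAAT occurred in 19 of these 35 (54.3%) and in 27 of the 36 mitosis genes with a promoter (75%), against 34.7% for genes tested and 33.0% of all promoters. Among the 2456 promoters of genes with a called line difference the shares were 2.52% for E2F letters and 35.7% for CCAAT. Both were close to the shares for genes tested. These counts are of letters in 250 bases and say nothing of which factor acted.

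Of 24 homologous recombination and Fanconi genes 22 fell in H1299 (median -0.66) and 1, EXO1, in A549 (median -0.23). A line difference was called for 10 (41.7%), all with the A549 change above, beside 12.2% of all genes. Single-library omissions gave 3 to 17, the lowest without replicate 1 of A549 siControl. RAD51AP1, a cofactor of strand exchange, changed by -1.01 ± 0.10 in H1299 and -0.05 ± 0.13 in A549, and the recombination protein XRCC2 by -1.34 ± 0.12 and -0.35 ± 0.14. Among 24 cyclins, CDK inhibitors and E2F factors the line difference was called for 10 (41.7%), all above, against 12.2% of all genes called above. SKP2, the ubiquitin ligase subunit that degrades p27, was at 27.9, 24.3 and 28.8 CPM in H1299 controls and 18.5, 20.4 and 18.8 CPM after siTAZ, and at 16.3, 13.9 and 12.6 CPM and 16.9, 17.6 and 14.4 CPM in A549, with overlapping A549 groups. The CDK inhibitor CDKN2D changed by -0.69 ± 0.08 in H1299 and 0.11 ± 0.13 in A549.

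MYC, a transcription factor that drives ribosome production and growth, was 1 of the 2 genes called for the line difference without a replicate block. It was at 123, 124 and 129 CPM in H1299 controls and at 63.5, 63.9 and 66.9 CPM after siTAZ. Levels in A549 were 98.7, 104 and 111 CPM and 92.3, 94.8 and 111 CPM, with overlapping groups. The log2 change was -0.95 ± 0.05 in H1299 and -0.08 ± 0.05 in A549, and the line difference was 0.88 ± 0.07 with a 95% interval of 0.72 to 1.03 (adjusted p = 3.4e-06, edgeR). The call held in every alternative fit.

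Of 29 genes for MYC and ribosome biogenesis 26 fell and 1 rose in H1299 (median -0.44), and 0 were called in A549 by edgeR (9 at an unadjusted p below 0.05; median -0.12). A called line difference was seen for 18 (62.1%), all with the A549 change above, beside 12.2% of all genes. It was seen for 3 with the block in A549 only. Fibrillarin (FBL), a nucleolar RNA methyltransferase, was at 325, 328 and 303 CPM in H1299 controls and 207, 258 and 187 CPM after siTAZ, and changed by -0.03 ± 0.06 in A549. Of 25 immediate early genes 6 rose and 8 fell in H1299, where 21.3% of all genes rose and 23.3% fell. In A549 3 rose and 1 fell. Line differences were called above for 10 and below for 3 (52.0% in all, against 20.4% of all genes). Leaving out replicate 1 of A549 siTAZ gave 8. The AP-1 subunit FOSL1 was at 269, 197 and 309 CPM in H1299 controls and 159, 107 and 161 CPM after siTAZ, and at 18.5, 20.5 and 28.5 CPM and 22.6, 22 and 27.9 CPM in A549. Its line difference was 0.97 ± 0.09 (adjusted p = 1.2e-05, edgeR). JUN and ATF3, both of that list, also fell in H1299 (-0.42 ± 0.05 and -0.88 ± 0.11) with A549 changes of 0.10 ± 0.06 and -0.02 ± 0.10, whereas JUNB rose in H1299 by 0.66 ± 0.08.

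**Figure D3:**
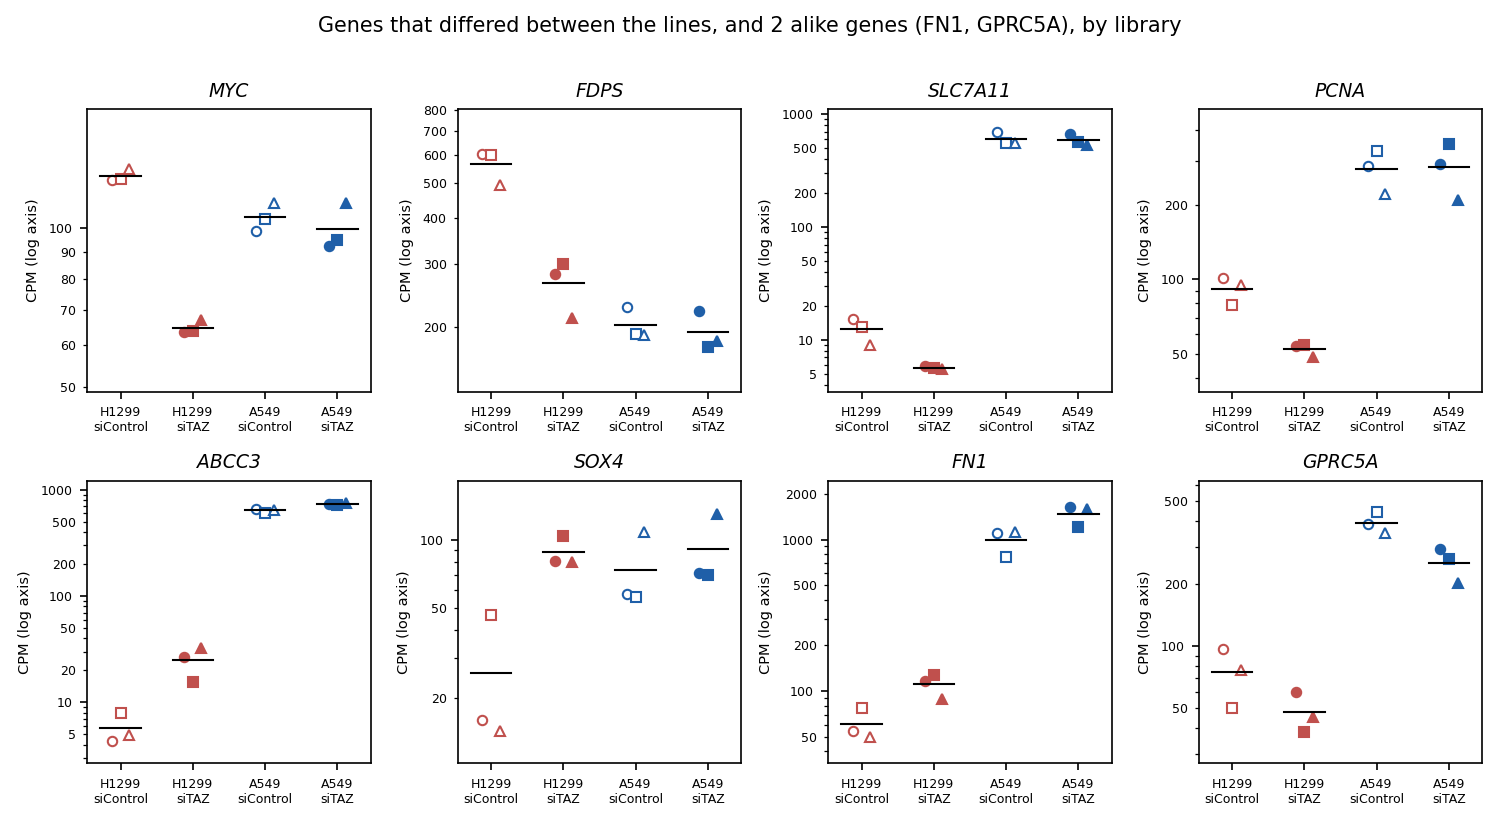
Level of 8 genes in each of the 12 libraries, as CPM on a log axis, with open points for siControl, filled points for siTAZ, circles, squares and triangles for replicates 1, 2 and 3 and bars for group means. MYC, FDPS, SLC7A11 and PCNA fell in H1299 only by the test within each line, ABCC3 and SOX4 rose in H1299, and FN1 and GPRC5A moved the same way in both lines.

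Of the 30 lists, cholesterol synthesis had the highest share of line differences in the fit with the block. Of 24 members tested 22 fell in H1299, 1 (TM7SF2) rose, and the median was -0.43. In A549 1 member, SREBF2, was called, and it rose, with a median of 0.04 over the list. A line difference was called for 22 (91.7%), all with the A549 change above, beside 12.2% of all genes. It was called for 19 to 21 when 1 library was left out and for 20 with DESeq2, but for 8 with the block in A549 only.

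FDPS, which makes farnesyl diphosphate, was at 604, 599 and 494 CPM in H1299 controls and at 282, 300.2 and 212 CPM after siTAZ. A549 had 228, 191 and 190.3 CPM and 222, 176 and 184 CPM, and these groups overlapped. The line difference was 1.04 ± 0.08 with an interval of 0.88 to 1.19 (adjusted p = 1.0e-06, edgeR). MSMO1, a sterol C4-methyl oxidase, was at 508, 329 and 379 CPM in H1299 controls and 314, 199.97 and 224 CPM after siTAZ, and at 674, 500.2 and 573 CPM and 737, 525 and 614 CPM in A549.

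SREBF2, the transcription factor that drives these genes, fell in H1299, with a log2 change of -0.18 ± 0.05 and rose in A549 by 0.19 ± 0.05. Of 14 cholesterol efflux and lipid storage genes tested 5 rose and 5 fell in H1299, with a median of -0.06. Line differences were called above for 3 and below for 2 (35.7% in all, against 20.4% of all genes). ABCA1, which exports cholesterol, had the largest H1299 rise of that list. It rose in H1299 from 17.5, 21.7 and 22.8 CPM to 53.9, 44.7 and 67 CPM, and was at 9.78, 13 and 31.8 and 10.5, 14.2 and 36.5 CPM in A549. Its line difference was -1.26 ± 0.13 (adjusted p = 3.1e-05, edgeR). Replicate 3 had the highest ABCA1 level in both A549 groups. The lysosomal cholesterol transporter NPC1 fell in H1299 (-0.44 ± 0.05) and was not called in A549 (-0.04 ± 0.05).

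The stretch before the MSMO1 start is shown because this gene had the second smallest adjusted p of the list. It covers 204 bases at chr4:165327419-165327622 on the plus strand (RefSeq, GRCh38.p14). Capitals mark the 3 matches to CCAAT on either strand, which start 185, 139 and 76 bases before the start.
MSMO1: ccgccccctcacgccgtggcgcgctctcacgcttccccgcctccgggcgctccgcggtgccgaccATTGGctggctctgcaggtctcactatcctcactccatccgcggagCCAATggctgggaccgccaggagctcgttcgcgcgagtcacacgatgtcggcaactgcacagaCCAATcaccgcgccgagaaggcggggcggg
Fewer than 80% of the list had a promoter in the table, so no share of the list is given.

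Amino acid and glycolysis genes also differed between the lines. Of 25 genes of the ATF4 amino acid response and unfolded protein response 15 fell and 2 rose in H1299, and 2 rose in A549. There were 14 called line differences (56.0%), all above, beside 12.2% of all genes called above, and 2 with the block in A549 only. SLC7A11, the cystine transporter, was at 15.3, 13 and 9 CPM in H1299 controls and 5.84, 5.59 and 5.55 CPM after siTAZ, against 694, 561 and 556 CPM and 666, 565 and 535 CPM in A549. A549 levels were thus far above those of H1299, with overlapping groups, and the line difference was 1.09 ± 0.13 (adjusted p = 4.6e-05, edgeR). The amino acid transporter SLC7A5 changed by -0.79 ± 0.06 in H1299 and -0.18 ± 0.05 in A549. PSAT1 and PHGDH of serine synthesis changed by -0.90 ± 0.07 and -0.74 ± 0.08 in H1299 and by -0.23 ± 0.07 and -0.14 ± 0.07 in A549.

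In the glycolysis and hypoxia list, with 25 members, siTAZ lowered 14 and raised 2 in H1299 and lowered 2 and raised 1 in A549. Line differences were called above for 11 and below for 1 (48.0% in all, against 20.4% of all genes). The glucose transporter SLC2A1 was at 305, 201 and 269.6 CPM in H1299 controls and 209, 153 and 184 CPM after siTAZ, and changed by 0.07 ± 0.05 in A549. The peptide hormone ADM was the exception, at 7.09, 8.02 and 5.68 CPM in H1299 controls and 13.7, 14.8 and 15.8 CPM after siTAZ, with a change of -0.03 ± 0.07 in A549. Of 23 NRF2 targets 9 were called above and 3 below (52.2% in all, against 20.4% of all genes). The 13 mitochondrially encoded transcripts gave 0 called line differences by edgeR (1 at an unadjusted p below 0.05) and 0 by DESeq2, with values from -0.20 to 0.12.

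**Figure D4:**
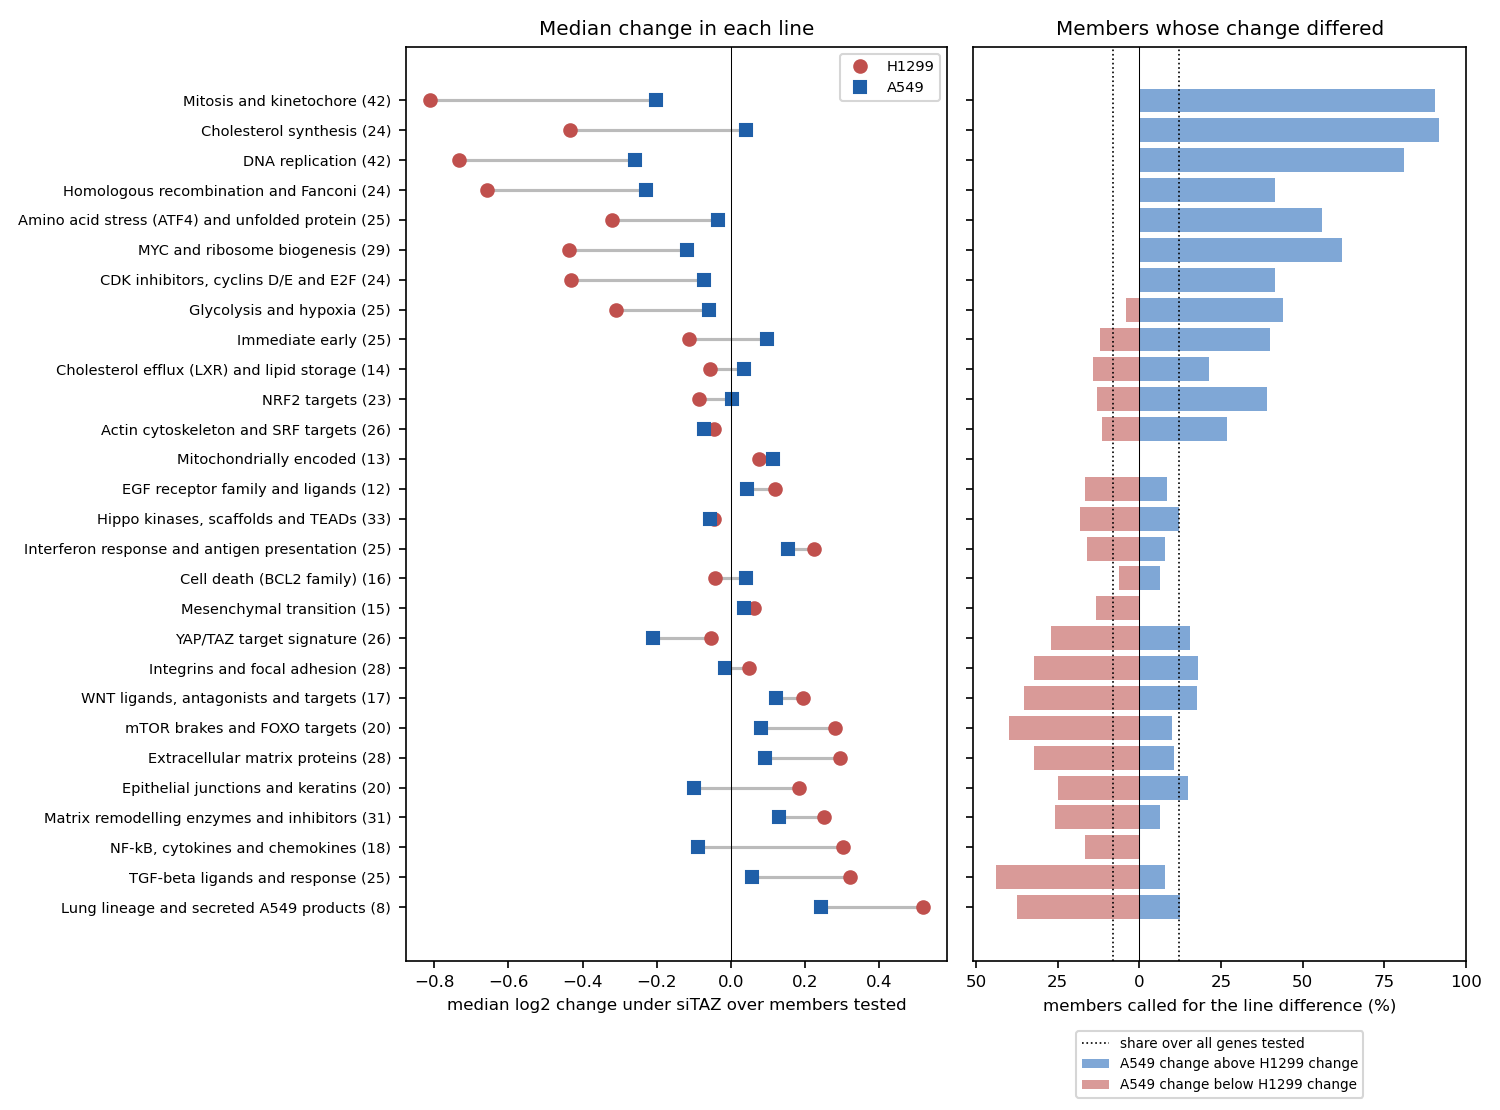
Gene lists with at least 8 members tested, the number in brackets (1 such list is not shown). The left panel shows the median log2 change under siTAZ in each line, and the right panel the share of members called for the line difference, with the A549 change above (to the right) or below (to the left). Dotted lines mark 12.2% and 8.2%, the shares over all genes. Mitosis, cholesterol synthesis and replication have the longest bars to the right.

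Genes of the matrix and of TGF-beta signalling went the other way: more of them rose in H1299. Of 25 TGF-beta ligands and response genes 14 rose and 4 fell in H1299 (median 0.32), and 2 rose and 2 fell in A549 (median 0.06). Line differences were called with the A549 change below for 11 (44.0%, against 8.2% of all genes) and above for 2, and for 2 members in all with the block in A549 only. TGFBI, a matrix protein induced by TGF-beta, was at 7.88, 12.9 and 4.55 CPM in H1299 controls and 17.7, 22.6 and 16 CPM after siTAZ. Levels in A549 were 1031, 1132 and 1509.7 CPM and 989, 1027 and 1676 CPM, far higher and overlapping. The latent TGF-beta binding protein LTBP3 changed by 0.90 ± 0.07 in H1299 and 0.17 ± 0.07 in A549, and the inhibitor SMAD7 by 0.72 ± 0.11 and -0.24 ± 0.12.

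Of 28 extracellular matrix genes 20 rose and 3 fell in H1299 and 4 rose in A549, and the line difference was called below for 9 and above for 3 (42.9% in all, against 20.4% of all genes). With the block in A549 only it was called for 0 of them. COL12A1, a fibril-associated collagen, rose in H1299 by 0.64 ± 0.09 with overlapping groups and was not called in A549 (-0.16 ± 0.11). Thrombospondin 1 (THBS1) fell in H1299, with a log2 change of -0.61 ± 0.09, against 0.08 ± 0.08 in A549. Among 31 matrix remodelling genes 8 were called below and 2 above (32.3% in all, against 27.4% of genes at or above 5 CPM in each line). ADAM19, a membrane metalloprotease, was at 44.4, 44.2 and 40.0 CPM in H1299 controls and 117, 92.1 and 101 CPM after siTAZ, and at 15.5, 14.3 and 24.3 CPM and 17.5, 17.7 and 31.5 CPM in A549. The protease inhibitor SERPINE2 was at 116, 127 and 116 CPM and 314, 189 and 296 CPM in H1299 and changed by -0.02 ± 0.10 in A549.

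Of 28 integrin and focal adhesion genes 12 rose and 6 fell in H1299, and 3 rose and 4 fell in A549, with line differences below for 9 and above for 5 (50% in all, against 20.4% of all genes). The shares of all genes that rose and fell in H1299 were 21.3% and 23.3%. ITGB8, the integrin subunit that activates latent TGF-beta, was at 7.3, 6.77 and 7.57 CPM in H1299 controls and 18, 13.3 and 17.3 CPM after siTAZ, and at 4.7, 5.01 and 3.37 CPM and 4.51, 4.68 and 4.25 CPM in A549. The collagen receptor subunit ITGA2 rose in both lines, by 0.89 ± 0.06 and 0.33 ± 0.06, and the sizes differed (adjusted p = 5.5e-04, edgeR). Of 20 epithelial junction and keratin genes 6 rose and 6 fell in H1299, and 1 rose and 7 fell in A549. Line differences were called above for 3 and below for 5 (40.0% in all, against 20.4% of all genes), and for 2 without replicate 2 of A549 siControl. In this list KRT7 was close to absent in H1299 (1.42, 1.69 and 1.94 CPM in controls) and in A549 went from 799.6, 946 and 888 CPM to 594, 635 and 564 CPM. The desmosomal plakophilin PKP3 rose in H1299 by 0.36 ± 0.07, against -0.06 ± 0.06 in A549. KRT8, KRT18 and KRT19 also fell in A549, with log2 changes of -0.34 ± 0.06, -0.53 ± 0.06 and -0.23 ± 0.05. Their H1299 changes and line differences are not given here, and KRT19 was at only 0.163 to 0.629 CPM in H1299.

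Of 17 WNT genes 9 rose and 4 fell in H1299, and 3 line differences were above and 6 below (52.9% in all, against 20.4% of all genes). WNT7B, a secreted ligand, was at 0.525, 1.15 and 0.921 CPM in H1299 controls and 3.25, 3.71 and 2.75 CPM after siTAZ, and at 193, 232 and 163 CPM and 196, 205 and 169 CPM in A549. The line difference of -1.93 ± 0.22 (adjusted p = 3.7e-05, edgeR) was the largest in size of the 17 tested, beside a low H1299 level. AXIN2, a feedback inhibitor of WNT signalling, rose in H1299 by 1.20 ± 0.12, against 0.13 ± 0.09 in A549. Of 20 mTOR brakes and FOXO targets 12 rose and 3 fell in H1299 and 1 rose in A549, with 2 line differences above and 8 below. The insulin receptor substrate IRS1 changed by 0.53 ± 0.09 in H1299 and -0.16 ± 0.08 in A549. The mTOR inhibitor DEPTOR changed by 1.5 ± 0.16 in H1299 and 0.37 ± 0.13 in A549, and the pro-apoptotic BCL2 family gene BMF by 1.52 ± 0.14 and 0.54 ± 0.16. BMF siTAZ libraries lay above the controls in both lines, as they did for 18.4% of all genes in H1299 and 5.76% in A549.

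The other lists are read against the 20.4% of all genes called and the 27.4% of genes at or above 5 CPM in each line. The pro-apoptotic gene BAX and the exonuclease gene AEN fell in H1299 (-0.35 ± 0.06 and -0.66 ± 0.07) and were not called in A549 (0.05 ± 0.05 and 0.12 ± 0.06). Of 25 interferon and antigen presentation genes 2 were called above and 4 below (24.0% in all), and the RNA sensor DDX58 fell in H1299, with a log2 change of -0.28 ± 0.07 and rose in A549 by 0.28 ± 0.07. Of 18 NF-kB and cytokine genes 3 were called (16.7%), all below, including ICAM1 (1.29 ± 0.13 in H1299 and -0.07 ± 0.29 in A549), which lost the call without replicate 3 of either A549 group, and CSF1 (0.98 ± 0.16 and -0.10 ± 0.10). For 12 EGF receptor family genes and ligands 1 was called above and 2 below (25% in all), and EGFR and ERBB2 lost their calls in 7 and 6 of the 12 omissions. Of 26 actin and SRF genes 7 were called above and 3 below (38.5% in all; 0 with the block in A549 only), with changes of -0.58 ± 0.07 in H1299 and 0.00 ± 0.05 in A549 for the actin-binding protein CALD1. Of 15 mesenchymal transition genes 2 were called (13.3%), both below: the transcription factor ZEB2, which rose in H1299 (0.55 ± 0.07), and the G protein subunit GNG11, which fell in A549 (-0.34 ± 0.05). Of 26 lung lineage genes and secreted A549 products 8 were tested, and the line difference was called above for 1 and below for 3. The gene above was SOX9, a transcription factor of lung progenitors. SOX9 rose in A549 by 0.31 ± 0.06 and was not called in H1299 (-0.06 ± 0.05). SOX4 was among the 3 below.

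The list counts depend on the block as the whole-table count does. With no replicate block the line difference was called for 0 members of every list, except 1 (MYC) in each of the immediate early and MYC lists. Leaving out 1 library lowered the count to 6 in the YAP/TAZ signature (A549 siControl replicate 2), 4 in the Hippo list (A549 siControl replicate 1) and 9 in the MYC list (H1299 siControl replicate 1). It lowered the count to 3 among cyclins and CDK inhibitors and to 7 in the glycolysis list (both H1299 siControl replicate 1), to 7 in the amino acid list (H1299 siTAZ replicate 1), 6 in the matrix list (A549 siControl replicate 3) and 7 in the integrin list (A549 siControl replicate 1). Without both H1299 libraries numbered 2 it rose to 16 in the matrix remodelling list and to 17 in the matrix list. Among NF-kB genes it ran from 1 (A549 siControl replicate 3) to 11, and it fell to 7 in the NRF2 list (A549 siControl replicate 2). The interferon list fell to 2, the actin list to 5, the EGF list to 0 and the mTOR list to 6 (each at its lowest without H1299 siControl replicate 1). WWTR1 itself fell by a log2 change of 2.49 in H1299 and 1.62 in A549, and the part of that in the list counts was not tested.

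The 10 protein-coding genes with the largest A549 change above H1299, at or above 5 CPM in each line, were DKK1, SLC4A8, SKA1, SLC7A2, MGLL, HES6, SLC7A11, NF2, FDPS and TMEM97. DKK1, a secreted WNT antagonist, was at 21.4, 7.86 and 23.2 CPM in H1299 controls and 5.44, 2.75 and 4.52 CPM after siTAZ, and at 271, 319.8 and 155 CPM and 248, 195 and 81.5 CPM in A549. It fell in both lines, with log2 changes of -2.02 ± 0.18 in H1299 and -0.58 ± 0.10 in A549, and the A549 groups overlapped. Its line difference was 1.44 ± 0.21 (adjusted p = 3.0e-04, edgeR).

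SLC7A2, a transporter of cationic amino acids, and MGLL, monoacylglycerol lipase, fell in H1299, with log2 changes of -1.38 ± 0.14 and -1.21 ± 0.15 and were not called in A549 (-0.24 ± 0.11 and -0.07 ± 0.08). HES6, a bHLH factor of the HES family, changed by -1.08 ± 0.10 and 0.01 ± 0.10, and TMEM97, the sigma-2 receptor, by -0.92 ± 0.08 and 0.12 ± 0.07. SLC4A8, a sodium-dependent bicarbonate transporter, was the only one of the 10 with an A549 change and no H1299 call: 3.14, 4.68 and 3.98 CPM in A549 controls and 6.79, 11.4 and 6.85 CPM after siTAZ, against 76.8, 67.2 and 85.8 CPM and 73.9, 62 and 70.6 CPM in H1299.

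In the other direction the 10 genes were ABCC3, SOX4, SLC30A1, MXRA8, SYNPO, ANK1, ABCA1, KRCC1, TGFBI and OLFML2A, and all 10 rose in H1299. ABCC3, a multidrug resistance exporter, was at 4.31, 7.97 and 4.96 CPM in H1299 controls and 26.9, 15.4 and 32.8 CPM after siTAZ. A549 had 666, 606 and 653 CPM and 732, 714 and 751 CPM, far above the H1299 levels, with the siTAZ libraries above the controls and no call (adjusted p = 0.46, edgeR). This is a line difference of -1.90 ± 0.24 (adjusted p = 9.6e-05, edgeR).

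SOX4, a transcription factor of progenitor cells, was at 16, 46.6 and 14.3 CPM in H1299 controls and 80.2, 104 and 79.4 CPM after siTAZ, and at 57.3, 55.6 and 108 CPM and 71.5, 69.7 and 130.3 CPM in A549. Replicate 2 was the highest of both H1299 groups and replicate 3 of both A549 groups. The zinc exporter SLC30A1 changed by 1.63 ± 0.19 in H1299 and 0.13 ± 0.15 in A549. MXRA8, a membrane protein of the immunoglobulin superfamily, was at 29.3, 36.2 and 37.2 CPM in H1299 controls and 78.2, 71.3 and 101 CPM after siTAZ, and changed by -0.15 ± 0.13 in A549.

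**Figure D5:**
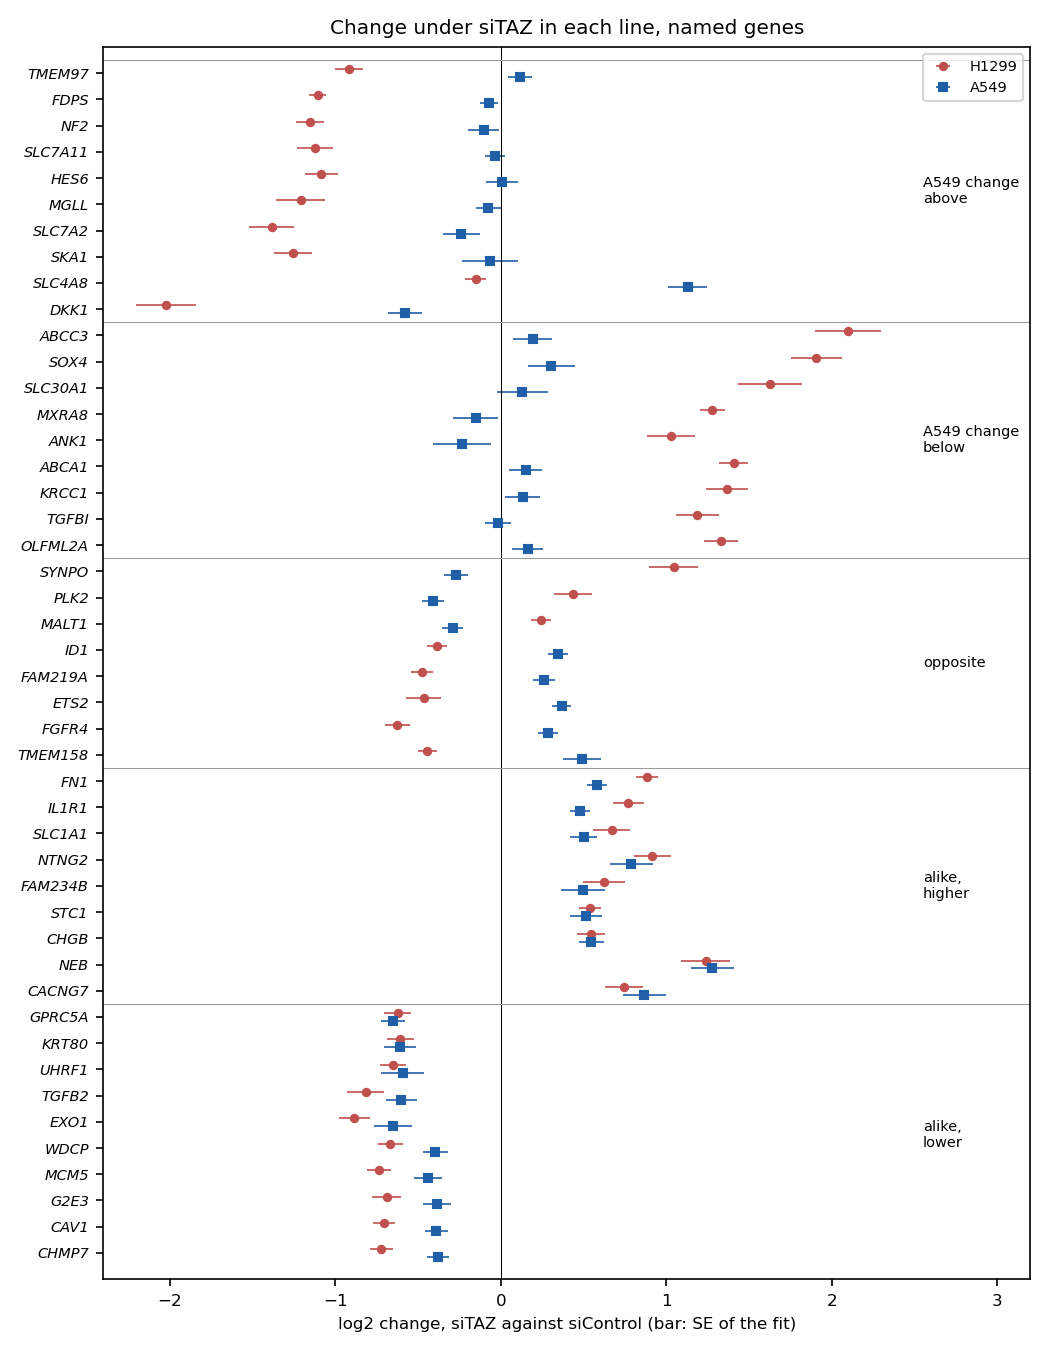
Log2 change under siTAZ in H1299 (red circles) and A549 (blue squares) for the named genes with the A549 change above or below, in opposite directions, and alike. Bars are the standard error of the fit. In the first 2 blocks the A549 points lie nearer to 0 than the H1299 points except for SLC4A8, and in the alike blocks both points lie on the same side of 0.

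In 27 genes the lines were called in opposite directions, 21 of them higher in A549 and lower in H1299 and 6 the reverse. This class is small and unsteady: it held 0 genes with no block or with the block in A549 only, 14 with DESeq2, 2 without both A549 libraries numbered 3 and 77 without both H1299 libraries numbered 2. TMEM158, a Ras-induced membrane protein, was at 759, 772 and 837 CPM in H1299 controls and 570.3, 587 and 581 CPM after siTAZ, and at 4.4, 4.81 and 9.16 CPM and 7.45, 5.35 and 14.2 CPM in A549. It fell in H1299, with a log2 change of -0.45 ± 0.06 and rose in A549 by 0.49 ± 0.11, within overlapping A549 groups. The growth factor receptor FGFR4 was at 30.8, 24.1 and 23.5 CPM in H1299 controls and 19.1, 17.5 and 14.3 CPM after siTAZ, and at 105, 98.7 and 57 CPM and 128, 128 and 63.9 CPM in A549. Within each A549 replicate number the siTAZ value was the higher.

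The transcription factor ETS2 changed by -0.47 ± 0.10 in H1299 and 0.37 ± 0.06 in A549, FAM219A by -0.48 ± 0.07 and 0.26 ± 0.07, and ID1, an inhibitor of bHLH factors, by -0.38 ± 0.06 and 0.35 ± 0.06. For ID1 each siTAZ library lay below its same-numbered control in H1299 and above it in A549, while the groups overlapped in both lines. Of the reverse kind, the actin-binding protein SYNPO changed by 1.05 ± 0.15 in H1299 and -0.27 ± 0.07 in A549, and the kinase PLK2 by 0.44 ± 0.12 and -0.41 ± 0.07. MALT1, a paracaspase of NF-kB signalling, changed by 0.24 ± 0.06 and -0.29 ± 0.07.

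The same direction with different sizes was called for 89 genes. Among those at a mean of 5 CPM or more in each line, the largest differences of genes that rose were in SRPX2, TRIB1, NPTXR, ATP9A and FBXO32. TRIB1, a pseudokinase, was at 12.9, 15 and 11.9 CPM in H1299 controls and 27.2, 30.9 and 33.4 CPM after siTAZ, and at 53.1, 49.5 and 58.7 CPM and 59.2, 65.4 and 75.8 CPM in A549. The groups stood apart in both lines, and the line difference was -0.88 ± 0.11 (adjusted p = 1.1e-04, edgeR). SRPX2, a secreted sushi-domain protein, changed by 1.37 ± 0.12 in H1299 and 0.29 ± 0.07 in A549, and the ubiquitin ligase FBXO32 by 0.99 ± 0.09 and 0.34 ± 0.09. With the same minimum, among genes that fell these were WWTR1, DKK1, TFPI2, PYCR1 and CDC6.

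The A549 change was the larger in 6 of the 89, TFPI2, AMOTL2, HPDL, PXDN, KIF5C and CEND1, named after their values were seen. TFPI2, an inhibitor of matrix-degrading serine proteases, was at 482, 448 and 569.8 CPM in A549 controls and 250.2, 185 and 295 CPM after siTAZ, and at 21, 16.4 and 17.9 CPM and 21.1, 11.7 and 12 CPM in H1299. Its line difference of -0.73 ± 0.13 (adjusted p = 0.001, edgeR) kept its call under every omission of 1 library. The motor protein KIF5C and the neuronal protein CEND1 rose in A549 by 0.86 ± 0.12 and 1.33 ± 0.16 and in H1299 by 0.26 ± 0.06 and 0.32 ± 0.10. HPDL was under 1 CPM in every A549 library, and PXDN lost its line difference under every omission of 1 library.

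Genes called in A549 and not in H1299 were also examined after the values were seen, the 5 largest in each direction at or above 5 CPM in each line. Those that rose in A549 were SLC4A8, SYT11, NLRP1, ANPEP and NOTCH3, and those that fell were SEMA3C, AJUBA, RFTN1, XDH and TRAM1. SEMA3C, a secreted guidance protein, was at 90.5, 99.5 and 96 CPM in A549 controls and 68, 54.1 and 58.4 CPM after siTAZ, and at 153, 156 and 126 CPM and 147, 142 and 132 CPM in H1299. The A549 groups stood apart and the H1299 groups overlapped, with a line difference of -0.63 ± 0.10 (adjusted p = 4.9e-04, edgeR). NOTCH3, a Notch receptor, was at 104, 70.1 and 86.2 CPM in A549 controls and 140.3, 105 and 122 CPM after siTAZ, and changed by 0.09 ± 0.10 in H1299, and its line difference was lost in 7 of the 12 omissions. TRAM1, a translocation protein of the endoplasmic reticulum, fell in A549, with a log2 change of -0.53 ± 0.05, against -0.07 ± 0.05 in H1299.

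A gene was called alike when both lines were called in the same direction and the 95% interval of the line difference lay within 1.5-fold either way. Both lines were called for 330 genes, and 303 of these (91.8%) moved in the same direction, which is 58.2% of the A549 calls and 4.38% of the H1299 calls. Of the 303, 201 were alike (1.29% of all genes), 133 higher in both lines (0.857%) and 68 lower (0.438%). A further 40 were neither alike nor different, and 27 of the alike genes were also called for a small line difference. The alike count was 85 within a narrower interval, 0 with no block, 5 with the block in A549 only and 106 with DESeq2, and 8 to 449 when 1 library was left out, the lowest without replicate 2 of A549 siTAZ.

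Alike genes with the largest rise included NEB, NTNG2, CACNG7, FN1, IL1R1, SLC1A1, FAM234B, CHGB and STC1. FN1, fibronectin, was at 54.5, 77.7 and 49.7 CPM in H1299 controls and 116, 129 and 89.2 CPM after siTAZ, and at 1109, 765 and 1117 CPM and 1638, 1217 and 1583 CPM in A549. All siTAZ libraries lay above the controls in both lines, and the log2 changes were 0.89 ± 0.07 and 0.58 ± 0.06. The interval of the line difference was -0.50 to -0.12, inside the bounds and also a call (adjusted p = 0.024, edgeR). NEB, the giant muscle protein nebulin, was at 4.2, 3.17 and 6.09 CPM in H1299 controls and 13, 4.95 and 14.4 CPM after siTAZ, and at 6.2, 6.93 and 8.99 CPM and 15.7, 19.1 and 17.4 CPM in A549. Its changes were 1.24 ± 0.15 and 1.28 ± 0.13, and replicate 2 of H1299 siTAZ was the lowest of its group.

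IL1R1, the interleukin-1 receptor, rose by 0.77 ± 0.10 in H1299 and 0.48 ± 0.06 in A549, with no overlap in either line. NTNG2, a netrin, rose by 0.92 ± 0.11 and 0.79 ± 0.13, and the granin CHGB by 0.55 ± 0.09 and 0.55 ± 0.07. STC1, a secreted glycoprotein, was at 232, 141 and 156 CPM in H1299 controls and 294, 194 and 275 CPM after siTAZ, and at 14.3, 16.7 and 15.7 CPM and 20.7, 23.1 and 23.3 CPM in A549. Its line difference was -0.03, with an interval of -0.27 to 0.22. FAM234B passed in A549 at an adjusted p of 0.0499 (edgeR), close to the threshold.

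The 10 alike genes with the largest fall were EXO1, TGFB2, GPRC5A, UHRF1, KRT80, MCM5, CHMP7, CAV1, G2E3 and WDCP. GPRC5A, an orphan receptor induced by retinoic acid, was at 96.9, 50.2 and 76.9 CPM in H1299 controls and 60.0, 38.4 and 45.3 CPM after siTAZ, and at 387, 444 and 350.04 CPM and 294, 263 and 202 CPM in A549. It fell, with log2 changes of -0.62 ± 0.08 in H1299 and -0.65 ± 0.07 in A549, and the interval of the line difference was -0.25 to 0.20. The groups stood apart in A549 and overlapped in H1299. KRT80, an epithelial keratin, was at 108, 119 and 131 CPM in H1299 controls and 83.1, 71.5 and 80.6 CPM after siTAZ, and at 32.5, 44.6 and 39.7 CPM and 26.2, 23.9 and 27.2 CPM in A549, with no overlap in either line. Its changes were -0.61 ± 0.08 and -0.61 ± 0.10.

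TGFB2, a TGF-beta ligand and signature member, fell, with log2 changes of -0.82 ± 0.11 in H1299 and -0.60 ± 0.09 in A549, with an interval of -0.09 to 0.52 for the line difference. CAV1, the caveola protein caveolin-1, was at 269, 216 and 288 CPM in H1299 controls and 154, 160.3 and 156 CPM after siTAZ, and at 195, 185 and 234 CPM and 159, 138 and 172 CPM in A549. It fell, with log2 changes of -0.71 ± 0.07 and -0.39 ± 0.07, with a called line difference of 0.32 ± 0.10 inside the bounds, which ran from 0.19 (without replicate 3 of H1299 siTAZ) to 0.43 and lost its call in 10 of the 12 omissions. Genes of DNA replication and repair were also among the alike genes. EXO1 changed by -0.88 ± 0.09 in H1299 and -0.65 ± 0.12 in A549, UHRF1 by -0.65 ± 0.08 and -0.59 ± 0.13 and MCM5 by -0.74 ± 0.07 and -0.44 ± 0.08. EXO1 is an exonuclease of mismatch repair and recombination, UHRF1 recruits the maintenance DNA methyltransferase, and MCM5 is a helicase subunit.

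The strand setting of the counting is not given in the sources used here. GENCODE v29 places an antisense gene over 34 of the 126 named genes, among them WWTR1, YAP1, CTGF, FDPS, SLC7A11, MCM2 and DKK1, and reads of such partners cannot be told apart. FDPS, PCNA, FBL, KRT8 and KRT18 also have processed pseudogenes that could share reads. Whether the replicates of a group were grown as separate cultures is not stated in the labels. The p-values then describe the spread among these libraries, and that spread may be technical.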

How the data were processed

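Poly(A) RNA-seq libraries of both lines were used as the raw gene counts that the authors deposited, 1 table per line. The submitters' processing notes name cutadapt, STAR 2.4.2a, DESeq2 and the build GRCh38. How reads were counted (tool, annotation, strand, multi-mapping reads) is not given in the sources used here. Gene positions and types were looked up by symbol in GENCODE v29. The 12 libraries were joined by gene symbol.

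Genes that passed edgeR's filterByExpr by group were kept, and libraries were scaled by TMM over both lines. The quasi-likelihood model of edgeR 4.0.16 (R 4.3.3) had the 4 groups and the replicate number within each line, with 4 residual and 13.8 prior degrees of freedom. The line difference was a contrast of that model, its standard error was taken from the F statistic, and p-values were adjusted by Benjamini-Hochberg. The block was used because deviations from group means correlated between same-numbered libraries in every pair (0.202, 0.363 and 0.190 in H1299, 0.350, 0.426 and 0.622 in A549). For different numbers the range was -0.303 to 0.160 in H1299 and -0.481 to 0.227 in A549. Deviations from a group mean cancel over the libraries of the group, so positive same-number values force the different-number values down on balance. The contrast between these ranges is therefore partly arithmetic. The 0.160, for H1299 siControl replicate 3 with siTAZ replicate 1, lay close to the same-number values of 0.190 and 0.202, so the ground for the block is weaker in H1299.

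Named genes at a mean of 5 CPM or more in each line were the 10 largest called differences in each direction, up to 5 opposite and 5 unequal genes each way, the 10 alike genes with the largest change each way, the 2 members of each list with the smallest adjusted p, and each called signature member. The list members were named at any level. Members and lists were chosen with earlier results of these data known. Tested on simulated data with 15410 genes, the fit with the block recovered 54% of line differences of log2 0.5 and 84% of log2 1. Of its calls 6.12% were false, and without the block 1% and 44% were recovered. The simulated counts were drawn from the model with the block, so they cannot tell which fit suits the real libraries. Alternatives were DESeq2 1.42.0, other blocks, scalings, filters and thinned counts, and leaving out libraries. Some genes that the rule names, and 1 gene list, are not reported here.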

Additional observations from a re-analysis of the deposited data

Results flagged for a closer look

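All 104 named genes with a called line difference are listed here with its log2 value, because the effect of siTAZ differed between the lines by the test of the difference itself (edgeR, adjusted p below 0.05). No value was read for a cause. With no replicate block 103 of the 104 lost the call and MYC kept it.

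Among the Hippo pathway genes and the YAP/TAZ signature the value was 0.87 for WWTR1, 1.05 for NF2, 0.87 for IGFBP3, 0.59 for CYR61, 0.42 for GADD45A and 0.25 for ASAP1 with the A549 change above. It was -0.80 for CCDC80, -0.63 for AJUBA, -0.59 for FSTL1, -0.51 for NUAK2, -0.42 for AMOTL2, -0.25 for YAP1 and -0.25 for DOCK5 with the A549 change below.

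Genes of DNA replication, mitosis, repair, growth and cell cycle control had values of 0.99 for CENPI, 0.99 for XRCC2, 0.97 for FOSL1, 0.96 for RAD51AP1, 0.89 for MAD2L1, 0.88 for MYC, 0.83 for PCNA, 0.82 for MCM2, 0.80 for CDKN2D, 0.69 for SKP2, 0.66 for CDC6 and 0.53 for FBL. SKA1, an outer kinetochore gene, had 1.19.

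Genes of sterol, amino acid and sugar metabolism had values of 1.09 for SLC7A11, 1.04 for FDPS, 1.03 for TMEM97, 0.82 for MSMO1, 0.68 for PYCR1, 0.61 for SLC7A5, 0.57 for SLC2A1 and 0.40 for NPC1, and ADM and ABCA1 went the other way with -1.13 and -1.26.

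Genes of the matrix, adhesion, the cytoskeleton and TGF-beta or WNT signalling with the A549 change below were at -1.93 for WNT7B, -1.20 for TGFBI, -1.14 for ITGB8, -1.14 for SERPINE2, -1.08 for SRPX2, -1.07 for AXIN2, -0.97 for ADAM19, -0.80 for COL12A1, -0.73 for TFPI2, -0.55 for ITGA2, -0.42 for PKP3 and -0.31 for FN1. Those with the A549 change above were at 1.44 for DKK1, 0.73 for ID1, 0.69 for THBS1, 0.59 for CALD1, 0.56 for ARHGAP29, 0.33 for PXDN and 0.32 for CAV1. The keratin KRT7 had -0.91.

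Other genes, with transporters, enzymes and membrane proteins among them, were at 1.28 for SLC4A8, 1.14 for SLC7A2, 1.13 for MGLL, 0.93 for TMEM158 and 0.34 for CHMP7. Those with the A549 change below were at -1.90 for ABCC3, -1.50 for SLC30A1, -1.43 for MXRA8, -1.32 for SYNPO, -1.26 for ANK1, -1.17 for OLFML2A, -1.33 for HPDL, -0.85 for RFTN1, -0.72 for ATP9A, -0.59 for XDH and -0.46 for TRAM1. Receptors, signalling genes and genes of vesicles, motors and neurons were at 1.03 for SYT11, 1.01 for CEND1, 0.91 for FGFR4, 0.74 for NLRP1, 0.59 for KIF5C, 0.44 for ANPEP and 0.42 for NOTCH3 and at -2.52 for PDGFRB, -1.36 for ICAM1, -1.13 for DEPTOR, -1.08 for CSF1, -0.88 for TRIB1, -0.84 for PLK2, -0.79 for NPTXR, -0.68 for IRS1, -0.63 for SEMA3C, -0.53 for MALT1, -0.25 for ERBB2 and -0.25 for EGFR. PDGFRB was at most 0.254 CPM in A549.

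The remaining genes, with transcription factors and death genes among them, were at 1.09 for HES6, 0.83 for ETS2, 0.78 for AEN, 0.74 for FAM219A, 0.56 for DDX58, 0.40 for BAX and 0.37 for SOX9 and at -1.60 for SOX4, -1.24 for KRCC1, -0.98 for BMF, -0.65 for FBXO32, -0.41 for GNG11 and -0.38 for ZEB2. The call was kept in all 12 fits that left out 1 library for 82 of the 104 genes and lost in at least 1 of them for 22. These 12 fits are not separate checks, because each also leaves the same-numbered partner library unpaired.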

How the results depend on the processing

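The line difference, the changes within each line and the alike and opposite classes depend on the replicate block, that is, on the pairing of same-numbered libraries. With no replicate block the line difference was called for 2 genes (1 higher and 1 lower in A549 relative to H1299), siTAZ in A549 for 0 (647 at an unadjusted p below 0.05), siTAZ in H1299 for 2755, and 0 genes were alike and 0 opposite. With the replicate block in A549 only these were 547 line differences (304 higher, 243 lower), 20 calls in A549, 5 alike and 0 opposite. DESeq2 with the block gave 1694 line differences (1007 higher, 687 lower, 1686 of them shared with edgeR), 280 calls in A549, 106 alike and 14 opposite genes. With all 18 libraries 16 genes were opposite and the other counts stayed within 1.5 times. Median-ratio size factors, scaling within each line, no filter and a mean of at least 5 CPM kept the number of line differences within 1.5 times. The share of calls with the A549 change above was 59.8% with the main scaling, 55.3% with median-ratio size factors and 53.8% at a mean of at least 5 CPM.

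Without both A549 libraries numbered 3, 1810 line differences (935 higher), 120 A549 calls, 43 alike and 2 opposite genes remained in the counts. Without both H1299 libraries numbered 2 there were 4482 line differences (2182 lower), 1216 A549 calls, 449 alike and 77 opposite genes. Leaving out 1 library gave 1479 to 4487 line differences, 746 to 2345 higher and 658 to 2197 lower. It gave 36 to 1213 A549 calls, 4867 to 7340 H1299 calls, 8 to 449 alike genes and 2 to 79 opposite genes. A narrower interval left 85 alike genes, and a 2-fold minimum left 258 line differences. Fewer libraries leave fewer residual degrees of freedom; the cause of the other shifts was not tested.

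The direction turned for 3 named genes whose line difference was not called. ANKRD1 was at -0.18 on thinned counts and -0.12 without both H1299 libraries numbered 2, and from -0.12 to 1.08 with 1 library left out. PDGFRA ran from -1.28 to 0.37 and CTGF from -0.021 to 0.52. For the 104 called genes no alternative turned the direction. ANKRD1 and PDGFRA are limited by depth, with few reads in H1299 and in A549 respectively.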
